A study of Mus musculus with 6 samples.

Results

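Adiponectin, the adipokine followed by the study, was examined together with its receptors and their shared adaptor in the lungs of WT and ISM1-/- mice. The group was defined by name as 5 genes, the ligand gene *Adipoq*, the receptor genes *Adipor1*, *Adipor2* and *Cdh13*, and the adaptor gene *Appl1*, out of 54532 genes in the deposited table. All 5 were found in the table and all 5 passed the filter on low counts. Poly-A RNA was sequenced from whole lungs of untreated mice at 2 months old, with 3 WT and 3 ISM1-/- libraries. ISM1 is Isthmin-1, a secreted protein, and the study asked what its loss does to the resting lung. The WT mice were C57BL/6J animals bought from a supplier, and the ISM1-/- mice were bred in-house on a C57BL/6J background, so an effect of genotype and one of the origin of the mice cannot be told apart. The lungs of both groups were flushed with PBS to remove blood. The p-values weigh the genotype difference against the spread between libraries of the same genotype. The labels describe the libraries as replicates without naming the animals, so they do not show whether each library is a separate mouse.

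Adiponectin is a collagen-like hormone that is made chiefly by adipocytes and is assembled into trimers and larger multimers before secretion. AdipoR1 and AdipoR2, encoded by *Adipor1* and *Adipor2*, are membrane receptors of the PAQR family that signal through AMPK and PPAR-alpha and carry ceramidase activity. T-cadherin, encoded by *Cdh13*, is a cadherin held in the membrane by a lipid anchor, is abundant on blood vessels and binds the larger forms of adiponectin. APPL1, encoded by *Appl1*, binds the inner part of the AdipoR proteins and links them to downstream kinases. In the lung, adiponectin is known for damping inflammation and for helping macrophages to take up apoptotic cells.

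Total counts lay between 37606133 and 42345042 per library. Values below are CPM, counts scaled to the library total after adjustment by the trimmed mean of M-values (TMM), unless they are called FPKM, which are scaled to transcript length as well. A gene passed the test when its adjusted p in the edgeR quasi-likelihood test (Benjamini-Hochberg) was under 0.1. Of 18689 genes tested, 624 (3.34%) were lower and 258 (1.38%) were higher in ISM1-/-, 882 (4.72%) in all, and 53 (0.284%) were lower by at least 2-fold. An unadjusted p under 0.05 was found for 2949 genes (15.8%), and DESeq2 called 819 (4.38%) as lower and 466 (2.49%) as higher. The targeted gene *Ism1* was still counted in the libraries labelled ISM1-/-, with 2784, 2508 and 2953 counts against 3098, 3215 and 2975 counts in WT, and its log2 fold change was −0.19 (adjusted p = 0.217 and unadjusted p = 0.0230 in the edgeR test), without overlap between genotypes in CPM. The transcript remained in both genotypes, so gene counts gave no separate check of the genotype labels, and ISM1-/- is used here for the libraries that carry this label. *Xist* was counted in all 6 libraries, at 44398 to 51058 counts, and the Y-linked genes *Ddx3y*, *Uty*, *Kdm5d* and *Eif2s3y* had 0 counts in all of them.

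The sequence before the start of the ligand gene differed in composition from that of a receptor gene. RefSeq promoters in build GRCm38.p6 were matched by symbol for 3 of the 5 genes, *Adipoq*, *Adipor1* and *Adipor2*. The 250 bases before the start sites of *Adipoq* and *Adipor1* are shown for the ligand whose level differed most between genotypes and for a receptor whose level differed least. Both are on the plus strand, at chr16:23146286-23146535 for *Adipoq* and at chr1:134415128-134415377 for *Adipor1*, and capitals mark the letters CCAAT and GGGCGG read on either strand.
Adipoq: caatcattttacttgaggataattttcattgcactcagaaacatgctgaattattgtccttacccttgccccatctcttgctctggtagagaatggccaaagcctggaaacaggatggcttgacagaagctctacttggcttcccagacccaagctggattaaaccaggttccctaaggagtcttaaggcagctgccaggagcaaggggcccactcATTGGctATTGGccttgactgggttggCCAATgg
Adipor1: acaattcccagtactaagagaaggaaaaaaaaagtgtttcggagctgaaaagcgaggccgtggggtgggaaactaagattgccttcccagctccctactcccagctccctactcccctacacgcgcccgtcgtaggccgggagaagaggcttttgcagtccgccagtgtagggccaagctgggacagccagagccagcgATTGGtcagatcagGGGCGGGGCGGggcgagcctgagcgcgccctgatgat
The *Adipoq* sequence held 0 CpG dinucleotides and 48.8% G and C, whereas the *Adipor1* sequence held 15 CpG and 59.6% G and C. Among 32851 promoters of this length in the table the median was 6 CpG and 52.4% G and C, and 7.87% of them held 0 CpG. A promoter with at least 15 CpG made up 27.3% of the table.

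The *Adipoq* sequence held 3 CCAAT boxes, at −34 and −27 as ATTGG and at −7 as CCAAT, counted from the first base of the gene. *Adipor1* held 1 CCAAT box, at −51 as ATTGG, and 2 GC boxes (GGGCGG) that overlap by 1 base, at −37 and −32. CCAAT was present in 33.8% and GGGCGG in 32.7% of all promoters in the table. *Adipoq* also held 1 match to the C/EBP motif TTNNGNAA, at −81 on the minus strand, a pattern found in 36.8% of promoters. Neither sequence held TATAAA, which was found in 12.4% of promoters, or the nuclear receptor half-site AGGTCA, found in 14.0%, on either strand. A direct repeat of this half-site with 1 base between, a form of PPAR response element, was found in 0.0335% of promoters and in neither of these. A second *Adipor1* entry starts 286 bases downstream and held 33 CpG, and the *Adipor2* entry lies inside the gene and held 27 CpG (chr6:119388735-119388984, minus strand). At least 33 CpG were found in 4.03% of promoters, and at least 27 in 8.56%. These matches describe letters only.

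*Adipoq* (ENSMUSG00000022878, chr16:23146536-23158028, plus strand), the adiponectin gene, was lower in ISM1-/- lungs. It had 559, 433 and 462 counts in the WT libraries, against 111, 82 and 254 in ISM1-/- (replicates 1 to 3), or 14.8, 10.4 and 11.9 CPM against 2.61, 2.16 and 6.51 CPM. Every WT library lay above every ISM1-/- library, and among the ISM1-/- libraries replicate 3 stood above the other two. The mean was 12.4 ± 2.23 CPM (SD, n = 3) in WT, against 3.76 ± 2.39 CPM (SD, n = 3) in ISM1-/-, which is 30.3% of the WT level. The log2 fold change was −1.72 (standard error 0.338, 95% interval −2.48 to −0.97, adjusted p = 0.0343 in the edgeR quasi-likelihood test (Benjamini-Hochberg)). The study picked *Adipoq* from these same libraries, so its test is no independent evidence. In RNA from whole lung, fewer cells of a type and less RNA per cell cannot be told apart.

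The spread between libraries was wider for *Adipoq* than for the receptors and the adaptor in both genotypes. Its coefficient of variation was 17.99% in WT and 63.6% in ISM1-/-, whereas those of the other 4 genes lay between 2.33% and 8.51%. The highest library exceeded the lowest 6.86-fold for *Adipoq*, against 1.13-fold to 1.19-fold for the others. The adjusted p of *Adipoq* crossed 0.1 when certain libraries were dropped, while its log2 fold change stayed negative. Without WT replicate 2, ISM1-/- replicate 1 or ISM1-/- replicate 2 the adjusted p of the edgeR test was 0.1004, 0.128 and 0.113, with log2 fold changes of −1.83, −1.51 and −1.45. Without WT replicate 1, WT replicate 3 or ISM1-/- replicate 3 it was 0.0752, 0.0884 and 0.00348, with log2 fold changes of −1.57, −1.75 and −2.37. Genes called lower among all tested numbered 624 with every library, and 115, 169 and 181 in the fits where *Adipoq* failed. They numbered 429, 253 and 900 in the fits where *Adipoq* passed. Whether the smaller number of libraries accounts for the lost calls was not tested. Among the 18689 genes tested, *Adipoq* ranked 41 from the lowest log2 fold change and 267 by p.

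**Figure D1:**
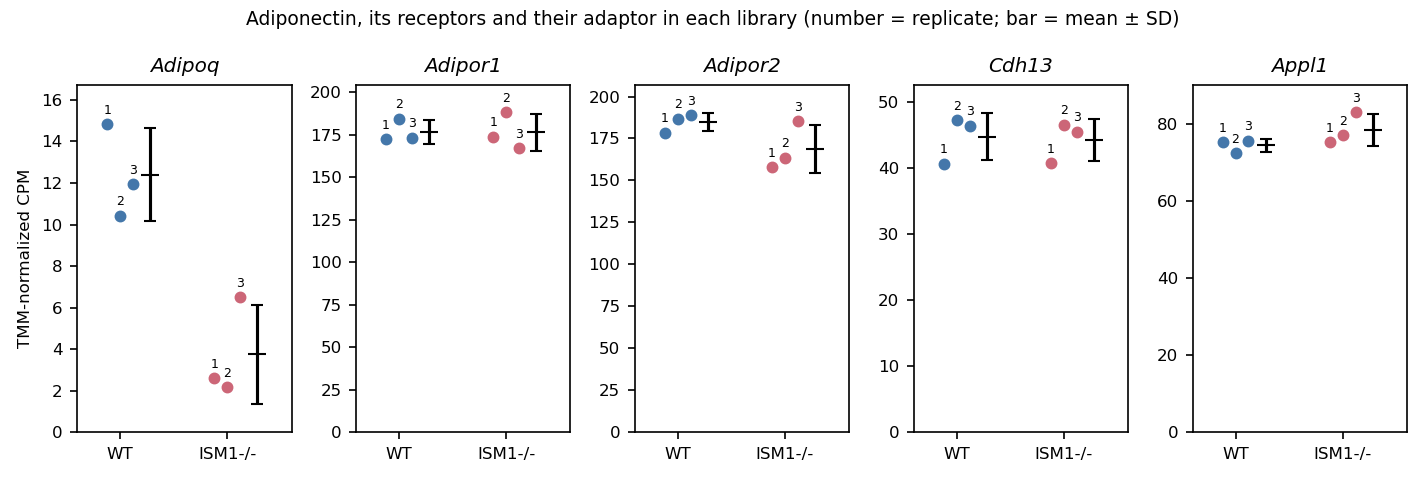
TMM-normalized CPM (y axis, starting at 0) of *Adipoq*, *Adipor1*, *Adipor2*, *Cdh13* and *Appl1* in each library of WT and ISM1-/- (points, numbered by replicate), with the mean ± SD (bars, n = 3). *Adipoq* lies between 10.4 and 14.8 CPM in WT and between 2.16 and 6.51 CPM in ISM1-/-, while the genotypes overlap for each of the other 4 genes.

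The receptors and the adaptor did not pass the test. Of the 5 genes, 1 passed as lower and 0 as higher, against 3.34% and 1.38% of all genes tested. Among the other 4 genes, edgeR called 0, 0 had an unadjusted p under 0.05 (15.8% of all genes), and DESeq2 called 0 (4.38% lower and 2.49% higher of all genes). The CPM values overlapped between genotypes for all 4, whereas 4037 of all genes tested (21.6%) had no overlap, 2294 (12.3%) with ISM1-/- lower and 1743 (9.33%) with ISM1-/- higher.

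*Adipor1* (ENSMUSG00000026457, chr1:134415378-134433351, plus strand), the receptor gene tied mainly to AMPK signaling, was at 172, 184 and 173 CPM in WT and at 174, 188 and 167 CPM in ISM1-/-. The highest and the lowest library were both ISM1-/-. Its means were 177 ± 6.82 CPM (SD, n = 3) and 176 ± 10.9 CPM (SD, n = 3), and its log2 fold change was −0.0028 with a 95% interval from −0.14 to 0.14 (adjusted p = 0.991 in the edgeR test). The sign of so small a value depended on the scaling and turned with DESeq2 and with RLE size factors.

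*Adipor2* (ENSMUSG00000030168, chr6:119353150-119417704, minus strand), the receptor gene tied mainly to PPAR-alpha signaling, was at 178, 187 and 189 CPM in WT and at 158, 164 and 185 CPM in ISM1-/-. Replicates 1 and 2 of ISM1-/- lay below all WT libraries, and replicate 3 lay within the WT range. The means were 185 ± 5.41 CPM (SD, n = 3) in WT, against 169 ± 14.4 CPM (SD, n = 3) in ISM1-/-, with a log2 fold change of −0.13 (95% interval −0.28 to 0.02, adjusted p = 0.412 in the edgeR test). Without ISM1-/- replicate 3, which was also the ISM1-/- library with the highest *Adipoq*, the log2 fold change of *Adipor2* was −0.20 and the gene passed (adjusted p = 0.0667 in the edgeR test). The fits without any other library gave adjusted p from 0.431 to 0.695 in the same test.

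*Cdh13* (ENSMUSG00000031841, chr8:118283733-119324921, plus strand), which encodes T-cadherin, was at 40.6, 47.2 and 46.4 CPM in WT and at 40.7, 46.5 and 45.4 CPM in ISM1-/-. In each genotype replicate 1 was the lowest library. The means were 44.7 ± 3.59 CPM and 44.2 ± 3.12 CPM (SD, n = 3 each), with a log2 fold change of −0.02 (95% interval −0.20 to 0.16, adjusted p = 0.950 in the edgeR test). The gene spans 5 small annotated genes with 0 counts in all libraries. Set against the mean log2 CPM of 10 endothelial markers in the same library, *Cdh13* was at −3.72, −3.46 and −3.45 in WT and at −3.72, −3.60 and −3.59 in ISM1-/-. The difference was −0.10 (exact permutation test, two-sided p = 0.3), and the smallest p that 3 libraries against 3 allow is 0.1. Without WT replicate 1 the difference was −0.18 (exact permutation test, two-sided p = 0.1). It lay between −0.12 and −0.05 without any other library (p from 0.3 to 0.8 in the same test).

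*Appl1* (ENSMUSG00000040760, chr14:26918988-26971232, minus strand), the adaptor gene, was at 75.2, 72.4 and 75.6 CPM in WT and at 75.2, 77.1 and 83.0 CPM in ISM1-/-. ISM1-/- replicate 3 was the highest library, and ISM1-/- replicate 1 lay within the WT range. The means were 74.4 ± 1.73 CPM and 78.4 ± 4.07 CPM (SD, n = 3 each), with a log2 fold change of 0.08 (95% interval −0.06 to 0.21, adjusted p = 0.608 in the edgeR test). A pseudogene on the other strand within *Appl1*, *Gm41115*, had a mean of 2 counts.

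**Figure D2:**
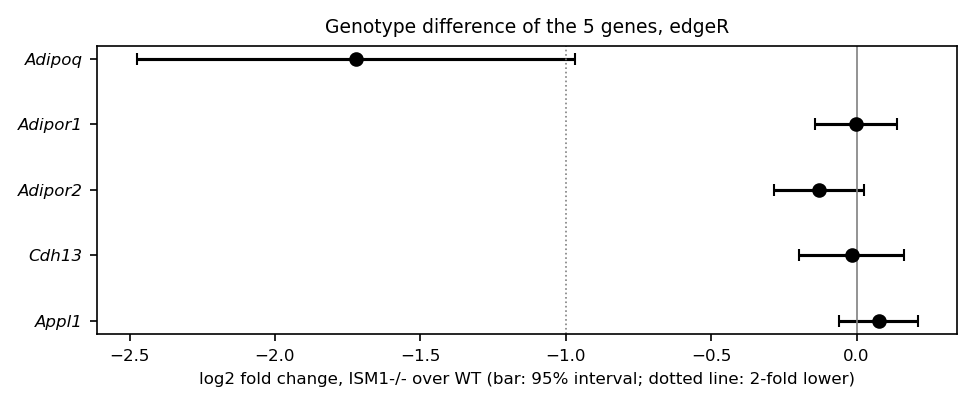
Log2 fold change of ISM1-/- over WT (x axis) for the 5 genes (y axis), with the 95% interval of the edgeR fit as bars; the solid line marks no difference and the dotted line a 2-fold lower level. The interval of *Adipoq* runs from −2.48 to −0.97, and those of the other 4 genes lie between −0.28 and 0.21 and include 0.

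Intervals of the log2 fold change bound what these libraries could have missed in the 4 genes. The lowest bound was −0.28, for *Adipor2*, and the highest was 0.21, for *Appl1*. All 4 intervals lay above that of *Adipoq*, whose upper bound was −0.97. Differences between genes in log2 fold change were not tested.

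Per length, both AdipoR genes were the most abundant of the 5 in both genotypes. In the deposited FPKM values of WT lungs the order was *Adipor1* at 77.3 ± 2.87, *Adipor2* at 74.9 ± 2.17, *Appl1* at 35.9 ± 0.888, *Cdh13* at 22.2 ± 1.77 and *Adipoq* at 13.6 ± 2.46 FPKM (SD, n = 3 each). In ISM1-/- lungs the order was the same, with *Adipor1* at 76.7 ± 5.28, *Adipor2* at 68.1 ± 5.04, *Appl1* at 37.6 ± 1.54, *Cdh13* at 21.8 ± 1.45 and *Adipoq* at 4.08 ± 2.55 FPKM. The libraries of *Adipor1* and *Adipor2* overlapped in FPKM in both genotypes, and those of all other neighbours in the order did not. The log2 ratio of *Adipor1* to *Adipor2* in FPKM was 0.06, 0.09 and −0.01 in WT and 0.25, 0.31 and −0.04 in ISM1-/-, a difference of 0.13 (exact permutation test, two-sided p = 0.4). Without ISM1-/- replicate 3 this difference was 0.23 (exact permutation test, two-sided p = 0.1). It lay between 0.06 and 0.15 without any other library (p from 0.4 to 0.8 in the same test).

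The order of the 3 less abundant genes depended on the length used. The deposited FPKM values imply a length of 915 bases for *Adipoq*, 2290 for *Adipor1*, 2471 for *Adipor2*, 2016 for *Cdh13* and 2079 for *Appl1*, and these are the mean lengths of the annotated transcripts, short ones included, rounded down to a whole base. With the gene length given in the deposited table, the WT levels were 8.98 ± 1.62 CPM per kilobase for *Adipoq*, 8.53 ± 0.199 for *Appl1* and 3.98 ± 0.320 for *Cdh13*. With the longest protein-coding transcript, they were 11.8 ± 0.949 CPM per kilobase for *Cdh13*, 9.73 ± 0.227 for *Appl1* and 9.60 ± 1.73 for *Adipoq*. Thus *Adipoq* was last of the 5 in WT under 2 of the 3 lengths, and in ISM1-/- under all 3.

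**Figure D3:**
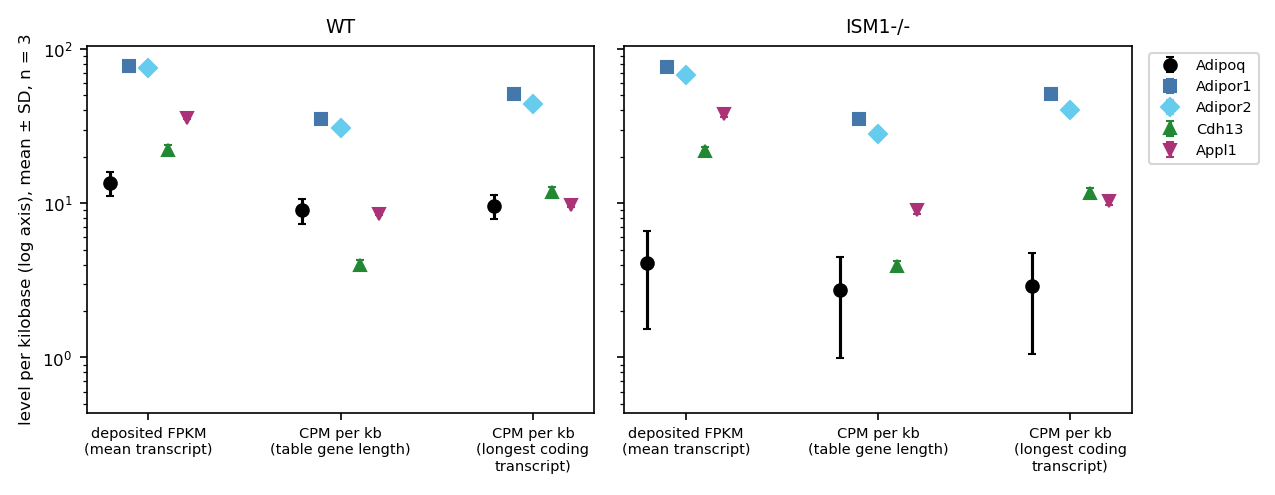
Level per kilobase (y axis, log scale, mean ± SD, n = 3) of the 5 genes in WT and ISM1-/- by deposited FPKM, by CPM per kilobase of the gene length in the table, and by CPM per kilobase of the longest protein-coding transcript. *Adipor1* and *Adipor2* are the highest under every length, and the places of *Appl1*, *Cdh13* and *Adipoq* change with the length.

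Adipocyte transcripts were lower together with *Adipoq*. Of 14 adipocyte markers, 12 passed as lower and 0 as higher in the edgeR test (3.34% and 1.38% of all genes), with a median log2 fold change of −1.43 over the list against 0.0043 over all genes tested. The summed level of the list was 346, 292 and 336 CPM in WT and 126, 150 and 209 CPM in ISM1-/-, and no marker was at 0 in any library. *Cfd*, the adipsin gene, fell from 104 ± 17.3 to 24.3 ± 16.1 CPM (SD, n = 3 each). *Plin1*, a lipid droplet coat gene, had 692, 519 and 505 counts in the WT libraries, against 119, 108 and 245 in ISM1-/-, with ISM1-/- replicate 3 the highest of its genotype as for *Adipoq*. *Cidec*, also a lipid droplet gene, fell from 20.9 ± 1.14 to 11.2 ± 2.64 CPM. The hormone sensitive lipase gene *Lipe*, the most abundant of the list, and *Adrb3*, the beta-3 adrenergic receptor gene, did not pass, at log2 fold changes of −0.07 and −0.06. Many of the 14, among them *Plin1*, *Lep*, *Retn*, *Fabp4*, *Lgals12*, *Acvr1c*, *Plin4*, *Adig* and *Mrap*, were also picked by the study from these libraries, so the count is not independent evidence of a direction.

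The other 9 markers that passed were *Lep*, *Retn*, *Fabp4*, *Lgals12*, *Acvr1c*, *Plin4*, *Thrsp*, *Adig* and *Mrap*, at log2 fold changes from −2.19 (*Lep*, the leptin gene) to −1.01 (*Lgals12*). *Plin1*, *Cidec* and *Cfd* passed in all 6 fits that left out 1 library. The number of the 14 markers that passed as lower was 9 without WT replicate 1, 4 without WT replicate 2, 8 without WT replicate 3, 5 without ISM1-/- replicate 1, 4 without ISM1-/- replicate 2 and 12 without ISM1-/- replicate 3. In the same order, the genes called lower among all tested numbered 429, 115, 253, 169, 181 and 900. The part of these transcripts in the level of *Adipoq* was not tested.

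Within each library, *Adipoq* was set against the mean log2 CPM of the 14 adipocyte markers. The log2 ratio was 0.43, 0.27 and 0.34 in WT and −0.04, −0.75 and 0.22 in ISM1-/-. The genotypes did not overlap, ISM1-/- replicate 3 lay just under the WT range, and the difference was −0.54 (exact permutation test, two-sided p = 0.1, the smallest that 3 libraries against 3 allow). It was −0.26 without ISM1-/- replicate 2, and it was −0.19 with the median of the markers in place of their mean (exact permutation test, two-sided p = 0.5). Against 11 alveolar type 2 markers, the log2 ratio of *Adipoq* was −6.33, −6.83 and −6.67 in WT and −8.75, −8.998 and −7.46 in ISM1-/-, with a difference of −1.79 (exact permutation test, two-sided p = 0.1).

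**Figure D4:**
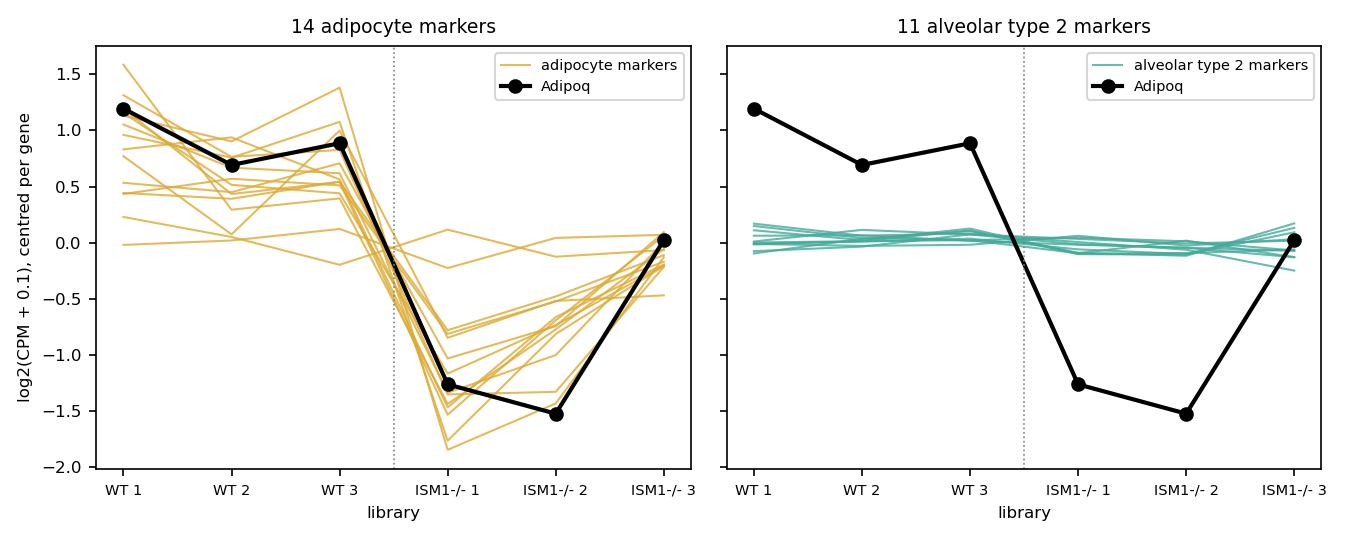
Level of *Adipoq* (black) and of single markers (coloured lines) in each library (x axis), as log2(CPM + 0.1) centred on each gene's mean over the 6 libraries (y axis), for 14 adipocyte markers and 11 alveolar type 2 markers. Most adipocyte markers share the drop of *Adipoq* in ISM1-/- and its higher level in ISM1-/- replicate 3, and the alveolar type 2 markers stay near 0 in all libraries.

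Alveolar type 2 cells, the surfactant-producing epithelial cells in which the study followed adiponectin, were well represented. Of 11 alveolar type 2 markers, edgeR called 0, 2 had an unadjusted p under 0.05 (15.8% of all genes) and DESeq2 called 1 as lower (4.38% of all genes). Of these 11, 5 had no overlap with ISM1-/- lower, against 12.3% of all genes. *Sftpc*, the surfactant protein C gene, was at 12457 ± 175 CPM in WT and 12366 ± 502 CPM in ISM1-/- (SD, n = 3 each). The summed level of the list was 26450 to 26948 CPM in WT and 25178 to 26174 CPM in ISM1-/-, without overlap, and the median log2 fold change of its members was −0.08. Of 10 endothelial markers, edgeR called 0, 4 had an unadjusted p under 0.05, DESeq2 called 1 as higher (2.49% of all genes), and 5 had no overlap with ISM1-/- higher, against 9.33% of all genes. Their median log2 fold change was 0.11, and *Ptprb*, the most abundant, was at 1566 ± 85.3 and 1588 ± 41.3 CPM. None of the markers of these lists was at 0 in any library.

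Markers of brown fat, heart and smooth muscle also had lower values in some ISM1-/- libraries. For brown fat and heart, WT replicate 1 stood apart. The summed cardiomyocyte markers were at 1655, 543 and 649 CPM in WT and at 296, 410 and 579 CPM in ISM1-/-. Of the 9 tested, *Myl7*, an atrial myosin light chain gene, passed as lower (log2 fold change −1.11), and *Myh6*, the most abundant, did not (−1.13). All 9 had a negative log2 fold change, with a median of −1.03, and all 9 had an unadjusted p under 0.05 (15.8% of all genes), while DESeq2 called 0. The lowest was *Nppa* at −3.30, with −4.38 to −0.83 over the fits without 1 library. The summed brown fat markers were at 26.2, 8.29 and 12.9 CPM in WT and at 6.77, 7.51 and 8.77 CPM in ISM1-/-. Of 5 tested, *Cox8b*, a cytochrome c oxidase subunit gene, passed as lower (−1.13) and *Cox7a1*, the most abundant, did not (−0.67). *Ucp1* had the lowest log2 fold change, at −4.45, and did not pass, with −5.03 to −1.68 over the fits without 1 library. DESeq2 gave *Ucp1* an adjusted p of 0.0647. The median of the 5 was −1.13, 4 had an unadjusted p under 0.05, and DESeq2 called 2 as lower (4.38% of all genes). Of 8 smooth muscle markers *Cnn1*, the calponin gene, passed as lower (−0.75), and *Myh11*, the most abundant, did not (−0.32), with sums of 642 to 742 CPM in WT and 542 to 657 CPM in ISM1-/-. The median of the 8 was −0.22, 4 had an unadjusted p under 0.05 (15.8% of all genes), and DESeq2 called 3 as lower (4.38% of all genes). In each of these lists edgeR called 1 as lower and 0 as higher (3.34% and 1.38% of all genes). Without overlap and with ISM1-/- lower there were 3 of 9 cardiomyocyte, 2 of 5 brown fat and 2 of 8 smooth muscle markers (12.3% of all genes). *Elovl3*, *Otop1* and *Myl2* had 0 counts in at least 1 library and were too low to be tested, and no other marker was at 0. In the edgeR fits that left out 1 library, *Cox8b* failed without WT replicate 1 or 3 or ISM1-/- replicate 1 or 2, at adjusted p from 0.103 to 0.180. *Cnn1* failed without WT replicate 2 or 3 or ISM1-/- replicate 1 or 2, at 0.109 to 0.162. *Myl7* failed without any library other than ISM1-/- replicate 3, at 0.106 to 0.280. With all libraries, DESeq2 gave an adjusted p of 0.00251 for *Cox8b*, 0.000156 for *Cnn1* and 0.180 for *Myl7*. The log2 fold change of *Adipoq* without WT replicate 1 was −1.57, and the part of these transcripts in it was not tested.

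The genes most like *Adipoq* across the 6 libraries were chosen by the smallest root-mean-square difference of log2 CPM after centring each gene, among 15875 genes whose mean was 1 CPM or more. Since *Adipoq* differed between genotypes, this measure favours genes that did so too. *Plin1* was the closest, at 0.15 log2 units, followed by *Car3*, a carbonic anhydrase gene abundant in fat and muscle, at 0.17. Next were *A530016L24Rik* (0.23), *Tmem45b* (0.24), the fatty acid carrier gene *Fabp4* (0.26), the lipid hydrolase gene *Pnpla3* (0.26) and *Cfd* (0.33). *Pck1*, the gene of a gluconeogenic enzyme (0.38), *Retn*, the resistin gene (0.40), and *Gm10435* (0.41) completed the 10. The median over all genes compared was 1.07. In WT the centred log2 CPM of *Adipoq* was 1.20, 0.70 and 0.89 and that of *Plin1* 1.32, 0.77 and 0.83. In ISM1-/- it was −1.28, −1.54 and 0.02 for *Adipoq* and −1.37, −1.34 and −0.22 for *Plin1*.

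Most other genes of the adiponectin pathway did not pass the test, but the share that passed as lower was above that of all genes. Of 74 genes in 7 lists ordered by role, 71 were tested, and 5 passed as lower and 1 as higher, with 65 that did not pass, at a median log2 fold change of −0.01. These shares are to be read against 3.34% lower and 1.38% higher among all genes. At an unadjusted p under 0.05 there were 21, against 15.8% of all genes, and DESeq2 called 6 as lower and 3 as higher, against 4.38% and 2.49% of all genes. Without overlap between genotypes there were 18 with ISM1-/- lower and 6 with ISM1-/- higher, against 12.3% and 9.33% of all genes. The shares with an unadjusted p under 0.05 and those lower by edgeR, by DESeq2 and without overlap were all above those of all genes. For higher genes the edgeR share was near that of all genes, the DESeq2 share above it and the share without overlap below it. These differences in share were not tested. The edgeR counts of lower and higher genes were 3 and 1 without WT replicate 1, 0 and 1 without WT replicate 2, 2 and 0 without WT replicate 3, 0 and 0 without ISM1-/- replicate 1, 1 and 0 without ISM1-/- replicate 2, and 5 and 2 without ISM1-/- replicate 3. Calls over all genes tested also moved in these fits, from 624 and 258 with every library. In the same order they were 429 and 242, 115 and 35, 253 and 88, 169 and 78, 181 and 80, and 900 and 570.

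Upstream of the ligand, 2 of 12 tested regulators of *Adipoq* transcription were lower and 0 higher in the edgeR test (3.34% and 1.38% of all genes). Their median log2 fold change was −0.17. In the same test 5 had an unadjusted p under 0.05 (15.8% of all genes). DESeq2 called 1 as lower and 1 as higher (4.38% and 2.49% of all genes). Without overlap there were 4 with ISM1-/- lower and 1 with ISM1-/- higher (12.3% and 9.33% of all genes). *Cebpb*, a C/EBP transcription factor gene of fat cell differentiation, had 4287, 4963 and 3818 counts in the WT libraries, against 3530, 3548 and 2473 in ISM1-/-. Its level fell from 111 ± 10.8 to 80.0 ± 15.3 CPM (SD, n = 3 each; log2 fold change −0.47, adjusted p = 0.0967 in the edgeR test). *Cebpd*, an early factor of the same family, had 2226, 5407 and 4767 counts in the WT libraries, against 2420, 2005 and 2410 in ISM1-/-, so that WT replicate 1 lay among the ISM1-/- libraries. Its log2 fold change was −0.87 (adjusted p = 0.0966 in the edgeR test), and DESeq2 gave an adjusted p of 0.159. *Pparg*, the master regulator of adipocytes and an activator of *Adipoq*, was at 10.5 ± 0.823 CPM in WT and 9.19 ± 0.252 CPM in ISM1-/-, without overlap. It did not pass (log2 fold change −0.19, adjusted p = 0.384 in the edgeR test). *Cebpa*, the most abundant of the list, was at 191 ± 9.29 and 158 ± 26.9 CPM, also without overlap. It did not pass (adjusted p = 0.249 and unadjusted p = 0.0307 in the edgeR test).

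Both edgeR calls among these regulators failed in some fits that left out 1 library. With all libraries, DESeq2 gave *Cebpb* an adjusted p of 0.00598. *Cebpb* failed without WT replicate 1, 2 or 3 or ISM1-/- replicate 1, at adjusted p from 0.119 to 0.289 in the edgeR test. *Cebpd* failed without any library other than WT replicate 1, at 0.122 to 0.290, and without WT replicate 1 its adjusted p was 0.00052 at a log2 fold change of −1.15. *Tfap2b*, a repressor, had at most 3 counts and was not tested.

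The genes that assemble and release adiponectin gave no call. Of 6 such genes, edgeR called 0, 1 had an unadjusted p under 0.05 (15.8% of all genes), DESeq2 called 0 (4.38% lower and 2.49% higher of all genes), and the median log2 fold change was 0.04. *Plod2*, a lysyl hydroxylase gene and the most abundant of the list, was at 76.9 ± 12.2 CPM in WT and 93.0 ± 12.8 CPM in ISM1-/- (SD, n = 3 each). Of 8 C1q/TNF-related paralogs of the ligand, edgeR called 0, 2 had an unadjusted p under 0.05, and DESeq2 called 1 as higher. The most abundant of these paralogs, *C1qtnf7*, was at 41.5 ± 4.37 and 48.6 ± 4.68 CPM and was not called by either. *C1qtnf5* had 0 counts in all libraries.

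Both AdipoR genes belong to the PAQR family. Of 7 other genes of this family, 1 passed as lower and 0 as higher (3.34% and 1.38% of all genes). Their median log2 fold change was −0.22. In the edgeR test 3 had an unadjusted p under 0.05 (15.8% of all genes). DESeq2 called 2 as lower (4.38% of all genes), and 4 had no overlap with ISM1-/- lower (12.3% of all genes). *Paqr9* had 138, 69 and 65 counts in the WT libraries, against 23, 27 and 39 in ISM1-/-, with WT replicate 1 well above the rest and no overlap between genotypes. It fell from 2.33 ± 1.15 to 0.751 ± 0.232 CPM (SD, n = 3 each; log2 fold change −1.63, adjusted p = 0.0506 in the edgeR test). It failed without WT replicate 2 or ISM1-/- replicate 1 or 2, at adjusted p of 0.106, 0.182 and 0.164 in the edgeR test. With all libraries, DESeq2 gave *Paqr9* an adjusted p of 0.00103. *Paqr7*, a progestin receptor gene and the most abundant of the list, was at 84.3 ± 5.80 and 84.6 ± 2.16 CPM. Of 10 genes for receptor partners and for uptake of apoptotic cells, edgeR called 0, 3 had an unadjusted p under 0.05 (15.8% of all genes) and DESeq2 called 0 (4.38% lower and 2.49% higher of all genes). Among them *Lrp1*, the most abundant, was at 714 ± 57.3 CPM in WT and 623 ± 33.9 CPM in ISM1-/-, and *Calr*, the calreticulin gene, was at 401 ± 10.7 and 449 ± 41.1 CPM.

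Downstream, the AMPK and PPAR-alpha branch had 2 of 19 genes lower and 0 higher in the edgeR test (3.34% and 1.38% of all genes). Their median log2 fold change was 0.01. In the same test 6 had an unadjusted p under 0.05 (15.8% of all genes), and DESeq2 called 3 as lower (4.38% of all genes). Without overlap there were 5 with ISM1-/- lower and 2 with ISM1-/- higher (12.3% and 9.33% of all genes). *Ppara*, the receptor gene for which the branch is named, had 201, 206 and 189 counts in the WT libraries, against 158, 105 and 139 in ISM1-/-. It fell from 5.06 ± 0.237 to 3.35 ± 0.509 CPM (SD, n = 3 each; log2 fold change −0.59, adjusted p = 0.0731 in the edgeR test). *Acaca*, the gene of an acetyl-CoA carboxylase that AMPK phosphorylates and that makes precursors of fatty acids, fell from 143 ± 18.5 to 109 ± 1.94 CPM (log2 fold change −0.39, adjusted p = 0.0488 in the edgeR test). *Ppara* failed without any library other than ISM1-/- replicate 3, at adjusted p from 0.140 to 0.215 in the edgeR test. *Acaca* failed without WT replicate 2 or ISM1-/- replicate 1 or 2, at 0.122, 0.149 and 0.162. With all libraries, DESeq2 gave an adjusted p of 0.0279 for *Ppara* and 0.00193 for *Acaca*. *Cab39*, a partner of the AMPK-activating kinase LKB1 and the most abundant of the list, was at 206 ± 7.92 and 218 ± 8.46 CPM and did not pass.

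In the ceramidase and sphingosine 1-phosphate branch, 0 of 9 genes passed as lower and 1 as higher (3.34% and 1.38% of all genes). Their median log2 fold change was 0.08. In the edgeR test 1 had an unadjusted p under 0.05 (15.8% of all genes), and DESeq2 called 1 as higher (2.49% of all genes). *Acer2*, an alkaline ceramidase gene and the most abundant of the list, had 11149, 16491 and 14263 counts in the WT libraries, against 19898, 17841 and 17605 in ISM1-/-, without overlap. It rose from 354 ± 52.4 to 463 ± 10.4 CPM (SD, n = 3 each; log2 fold change 0.39, adjusted p = 0.0710 in the edgeR test). It failed without WT replicate 3 or ISM1-/- replicate 1 or 2, at adjusted p of 0.140, 0.197 and 0.195 in the edgeR test. With all libraries, DESeq2 gave *Acer2* an adjusted p of 0.00260. *Acer1* had 0 counts in all libraries. Over the 8 genes of the branch that did not pass, log2 fold changes lay between −0.13 and 0.15.

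**Figure D5:**
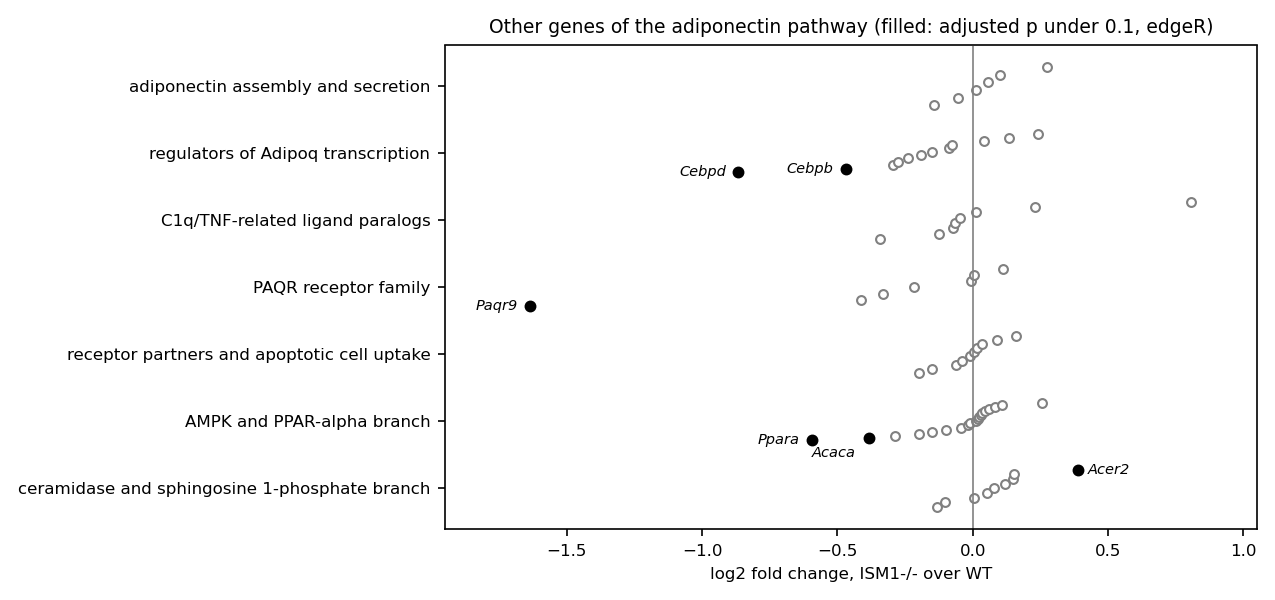
Log2 fold change of ISM1-/- over WT (x axis) for 71 other genes of the adiponectin pathway in 7 lists (y axis, 1 point per gene, spread vertically for legibility). Filled and named points passed an adjusted p under 0.1 in the edgeR test: *Cebpd*, *Cebpb*, *Paqr9*, *Ppara* and *Acaca* were lower, *Acer2* was higher, and the open points lie mostly near 0. The highest value is the open point of *C1qtnf3*, at 0.81.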

How the data were processed

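Strand-specific mRNA libraries of 6 whole lungs were made and read in pairs by a sequencing company. Reads were trimmed and mapped to GRCm38 with STAR, and the authors deposited raw counts per gene for 54532 genes. The counting program, annotation release and strand setting are not given in the sources used here. The authors also deposited FPKM values, which divide the count by the library total and a transcript length, and a gene length column, a value of the authors. The implied FPKM length was within 0.5 bases of the mean GENCODE M21 transcript length, rounded down, for 17832 of 18674 genes. Columns of unmapped samples numbered 0, and submitters' notes also name CASAVA.

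Genotypes and replicate numbers came from the labels. The 18689 genes that reached 0.5 CPM in 1 library or more were tested with edgeR 4.0.16 in R 4.3.3 (TMM scaling, quasi-likelihood F test, Benjamini-Hochberg), which was tested on simulated data, with DESeq2 1.42.0 and limma 3.58.1 as alternatives. The filter, the adjusted p and the 2-fold threshold were taken from the study, whose counts of changed genes required both thresholds. Here a gene passed on the adjusted p alone. The study's methods also give an adjusted p under 0.05 and a mean CPM of 2, which were run as alternatives. No library pair agreed within sampling noise (chi-square per degree of freedom 5.61 to 31.2). Pairs between genotypes gave 16.0 to 31.2. WT replicate 1 gave 16.3 and 17.4 against WT replicates 2 and 3, which gave 5.61 against each other. ISM1-/- replicate 3 gave 21.9 and 18.1 against ISM1-/- replicates 1 and 2, which gave 8.07 against each other. Some pairs of the same genotype thus differed as much as pairs between genotypes. Ratios within a library used log2 CPM with a prior count of 2 and exact permutation tests, and the ratio of both receptors used FPKM. The p-values of the 4 ratio tests are unadjusted and no value can go below 0.1. Named were the 5 genes, listed genes that passed, the most abundant gene of each list, the 10 genes most like *Adipoq*, overlapping genes and *Ism1*. *Pparg*, *Calr*, *Adrb3*, *C1qtnf3*, *Ucp1*, *Nppa*, sex-linked genes and the listed genes too low to be tested were named outside this rule. They were named after their values were seen. Members and lists were chosen with earlier results of these data known. Alternatives changed the test, scaling, filter, threshold, unit, marker summary or libraries. With 3 libraries per genotype, intervals rest on the spread between these libraries alone.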

Additional observations from a re-analysis of the deposited data

How the results depend on the processing

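*Adipoq* stayed lower under every alternative fit run, at an adjusted p of 0.0205 with DESeq2, 0.0355 with RLE size factors, 0.0347 with 0.5 CPM in 3 libraries, 0.0387 with a mean above 2 CPM, 5.01e-07 without a filter and 0.0747 with limma on log2(FPKM + 0.1), while its log2 fold change lay between −2.37 and −1.45 over fits without 1 library. *Adipor1* reversed to 0.0021 with DESeq2 and to 0.0021 with RLE size factors, and ranged from −0.051 to 0.036 over the fits without 1 library. *Cdh13* ranged there from −0.080 to 0.042 and *Adipor2* from −0.20 to −0.080. The 5 genes gave 0 to 2 lower calls over these fits. Replicate numbers did not pair the libraries (correlations of deviations −0.0405, 0.031 and 0.001 for numbers 1 to 3), and with the replicate block *Adipoq* was at −1.84 (adjusted p = 0.0149 in the edgeR test). The block gave 4 higher pathway genes, 1 higher marker and 399 higher genes among all tested. Pathway calls (5 lower, 1 higher) became 8 and 4 without a filter, 2 lower with a mean above 2 CPM, 1 and 0 at an adjusted p under 0.05, 1 and 0 with a 2-fold change, and 3 higher with DESeq2, with 0 to 5 lower and 0 to 2 higher without 1 library. Marker calls (15 lower, 0 higher) became 31 and 1 without a filter and 1 higher with DESeq2, with 4 to 21 lower and 0 to 1 higher without 1 library, and adipocyte markers gave 4 to 12. Over all genes, 624 lower and 258 higher became 1066 and 566 without a filter, 342 and 113 at an adjusted p under 0.05, 53 and 53 with a 2-fold change, and 466 higher with DESeq2, with 115 to 900 and 35 to 570 without 1 library. By CPM in place of FPKM, *Adipor2* took place 1 and *Adipor1* place 2 in WT. Per table gene length, *Adipoq*, *Appl1* and *Cdh13* took places 3, 4 and 5 in WT, and per longest coding transcript *Cdh13* and *Appl1* took places 3 and 4 in both genotypes. The 4 ratios within libraries kept their direction under all alternatives run. The length alternatives were added after seeing the data. The causes were not tested. Depth was alike in all libraries, and precision was limited by 3 libraries per genotype.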
